A study of Mus musculus with 12 samples.

Results

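The TGF-beta genes described here are 10 genes for ligands (Tgfb1, Tgfb2, Tgfb3), receptors (Tgfbr1, Tgfbr2, Tgfbr3), latency proteins (Ltbp1, Ltbp2, Ltbp3) and a TGF-beta-induced matrix protein (Tgfbi). They were chosen by name, out of 18193 genes with a probe set that carries a single gene symbol, and they have 27 such probe sets out of 34945. The study sorted 3 osteoprogenitor populations, named SSC, CSP and Thy in the sample labels, from the limb bones, skull cap, scapula, vertebrae and ribs of JUN-inducible mice, and hybridised 1 microarray per sample. Each population has 4 arrays, 2 from pups in which JUN was induced for 2 days by doxycycline in the drinking water of their mother, and 2 labelled -JUN, which are called without JUN here. The labels used here describe all the mice as JUN-inducible. They give no age in days, no promoter that drives the transgene, no sort gates, and no statement of whether the mice without JUN lacked doxycycline or a transgene. The titles name 5 mice: mouse 3 and mouse 3b without JUN gave 3 and 2 arrays, mouse 10 without JUN gave 1 SSC array, and mouse 4 and mouse 7 with JUN gave 3 arrays each. P-values therefore measure the spread between these arrays, several of which share an animal.

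TGF-beta is secreted as a latent complex, in which the ligand dimer is held by its own propeptide and tied to the matrix by a latent TGF-beta binding protein. Released ligand binds the type II receptor, Tgfbr2, which recruits and phosphorylates the type I receptor, Tgfbr1, and the type I receptor then phosphorylates SMAD2 and SMAD3; Tgfbr3, betaglycan, presents ligand to the pair and is needed most for Tgfb2. In bone the matrix is a large store of latent TGF-beta, which acts on osteoprogenitors and cartilage when it is freed. JUN is a subunit of AP-1, a transcription factor that binds TGANTCA elements and can act together with SMADs.

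For 8 of the 10 genes a RefSeq promoter was at hand (build GRCm38.p6, 250 bases before to 50 after a transcription start, 10 starts in all); Tgfb3 and Tgfbr3 have no entry. Both strands were searched for the AP-1 element TGANTCA, the related TGACGTCA, the SMAD palindrome GTCTAGAC and the GC box GGGCGG, and no match overlapped another. These letters are found in 7.81%, 1.79%, 0.213% and 35.7% of 32851 promoters of that length. The windows shown are those of Tgfb1 and Tgfbr1 because these genes had the largest differences between the arms, and those of Ltbp1 and Ltbp3 because they hold the only matches to the AP-1 element and its relative. Capitals mark the matches, and each sequence runs 5' to 3' on the plus strand, which is the strand of the gene. The Tgfb1 promoter lies at chr7:25686752-25687051, the first of 2 for Tgfbr1 at chr4:47352972-47353271, the first of 2 for Ltbp1 at chr17:75005279-75005578 and that of Ltbp3 at chr19:5740650-5740949.
Tgfb1: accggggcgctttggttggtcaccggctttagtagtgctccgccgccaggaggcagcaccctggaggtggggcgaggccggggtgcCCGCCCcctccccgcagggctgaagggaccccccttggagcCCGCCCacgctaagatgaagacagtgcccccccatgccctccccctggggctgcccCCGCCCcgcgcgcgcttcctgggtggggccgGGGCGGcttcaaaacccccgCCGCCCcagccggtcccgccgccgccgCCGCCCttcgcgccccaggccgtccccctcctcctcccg
Tgfbr1: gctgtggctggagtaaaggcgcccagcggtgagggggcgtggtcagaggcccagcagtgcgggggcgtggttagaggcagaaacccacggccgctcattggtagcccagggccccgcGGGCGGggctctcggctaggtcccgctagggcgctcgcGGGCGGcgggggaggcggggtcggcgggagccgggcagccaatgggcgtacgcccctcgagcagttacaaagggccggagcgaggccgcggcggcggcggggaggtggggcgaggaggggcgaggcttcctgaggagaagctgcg
Ltbp1: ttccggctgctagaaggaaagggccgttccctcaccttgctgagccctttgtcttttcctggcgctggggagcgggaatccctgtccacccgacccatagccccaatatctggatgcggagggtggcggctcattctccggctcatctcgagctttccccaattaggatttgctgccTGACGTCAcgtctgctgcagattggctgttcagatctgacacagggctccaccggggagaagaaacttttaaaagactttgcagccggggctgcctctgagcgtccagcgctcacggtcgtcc
Ltbp3: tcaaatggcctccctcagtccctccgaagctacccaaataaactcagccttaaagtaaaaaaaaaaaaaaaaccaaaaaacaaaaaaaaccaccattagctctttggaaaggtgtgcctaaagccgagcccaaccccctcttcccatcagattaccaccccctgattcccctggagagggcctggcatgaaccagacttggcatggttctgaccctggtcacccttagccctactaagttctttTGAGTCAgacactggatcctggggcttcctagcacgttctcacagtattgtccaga
The Tgfb1 window holds 6 GC boxes and the Tgfbr1 window 2. The Ltbp1 window holds TGACGTCA from position -73, and the Ltbp3 window holds TGAGTCA from position -6, both counted from the transcription start. A match describes these letters only. The windows of Tgfb2 and Tgfbr2, and the second window of Tgfbr1 and of Ltbp1, hold none of the 4 motifs, and those of Ltbp2 and Tgfbi hold 2 GC boxes each.

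Values are log2 expression, so a difference of 1 is a doubling. The sort labels were compared with marker genes, and Thy1 lay between 12.80 and 13.30 in Thy arrays and between 7.28 and 9.63 in the others. Ptprc, the leukocyte marker CD45, lay below the array median in all 12. Cd200 overlapped between the populations, at 9.91 to 10.48 in SSC, 8.27 to 10.67 in CSP and 8.80 to 10.35 in Thy. Itgav, Enpep and Tek overlapped as well. Of these sort markers, only Eng, described below, separated SSC from CSP without overlap. Jun itself did not separate the arms: its 2 probe sets ranged from 12.13 to 13.18 and from 11.55 to 12.39 with JUN, and from 12.06 to 13.65 and from 12.07 to 12.79 without it. Whether these probe sets read the transgene is not given in the sources used here. Cartilage genes stood apart in 3 arrays, where the mean of 18 chondrocyte markers was 12.98 (SSC with JUN, replicate 1), 12.68 (CSP without JUN, replicate 2) and 12.70 (CSP with JUN, replicate 1), against 8.53 to 10.55 in the other arrays. Control probe sets for bacterial RNAs with poly-A tails, which are commonly added in a fixed amount before labelling, lay at 8.47 and 9.11 in SSC without JUN, 11.2 and 9.95 in SSC with JUN, 9.95 and 10.8 in CSP without JUN, 11.3 and 11.8 in CSP with JUN, 11.9 and 11.3 in Thy without JUN, and 12.3 and 11.3 in Thy with JUN. Xist, the RNA that silences an X chromosome in female cells, lay at 11.5 to 12.6 in the 3 arrays of mouse 3 and at 5.51 to 6.82 in the other 9, so 3 of the 6 arrays without JUN and 0 of those with JUN read it high. With a covariate for mouse 3 the average JUN difference was 0.80 for Tgfb1 and -0.80 for Tgfbr1. In sorted but bulk samples, fewer cells of a type and less RNA per cell cannot be told apart.

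All 10 genes were expressed above the array median in all 12 arrays, and none passed the test in any comparison. Tested with limma across 12516 genes at a Benjamini-Hochberg adjusted p under 0.05, 0 of 10 passed between SSC and CSP, where 54 genes (0.431%) did. The count was 0 between SSC and Thy, where 49 genes (0.391%) passed, and 0 between CSP and Thy, where 124 (0.991%) passed. At an unadjusted p under 0.05 the members' counts were 0, 1 and 2, against 6.51%, 17.7% and 12% of all genes. For JUN in SSC, in CSP, in Thy and on average over the populations, 0 members and 0 genes (0%) passed by limma. The unadjusted counts were 2, 0, 0 and 2 members, against 6.5%, 2.3%, 3.04% and 12.5% of all genes. The interaction, which asks whether the effect of JUN differs between populations, gave 0 members at either threshold, with 0% of all genes at the adjusted and 1.15% at the unadjusted one.

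**Figure D1:**
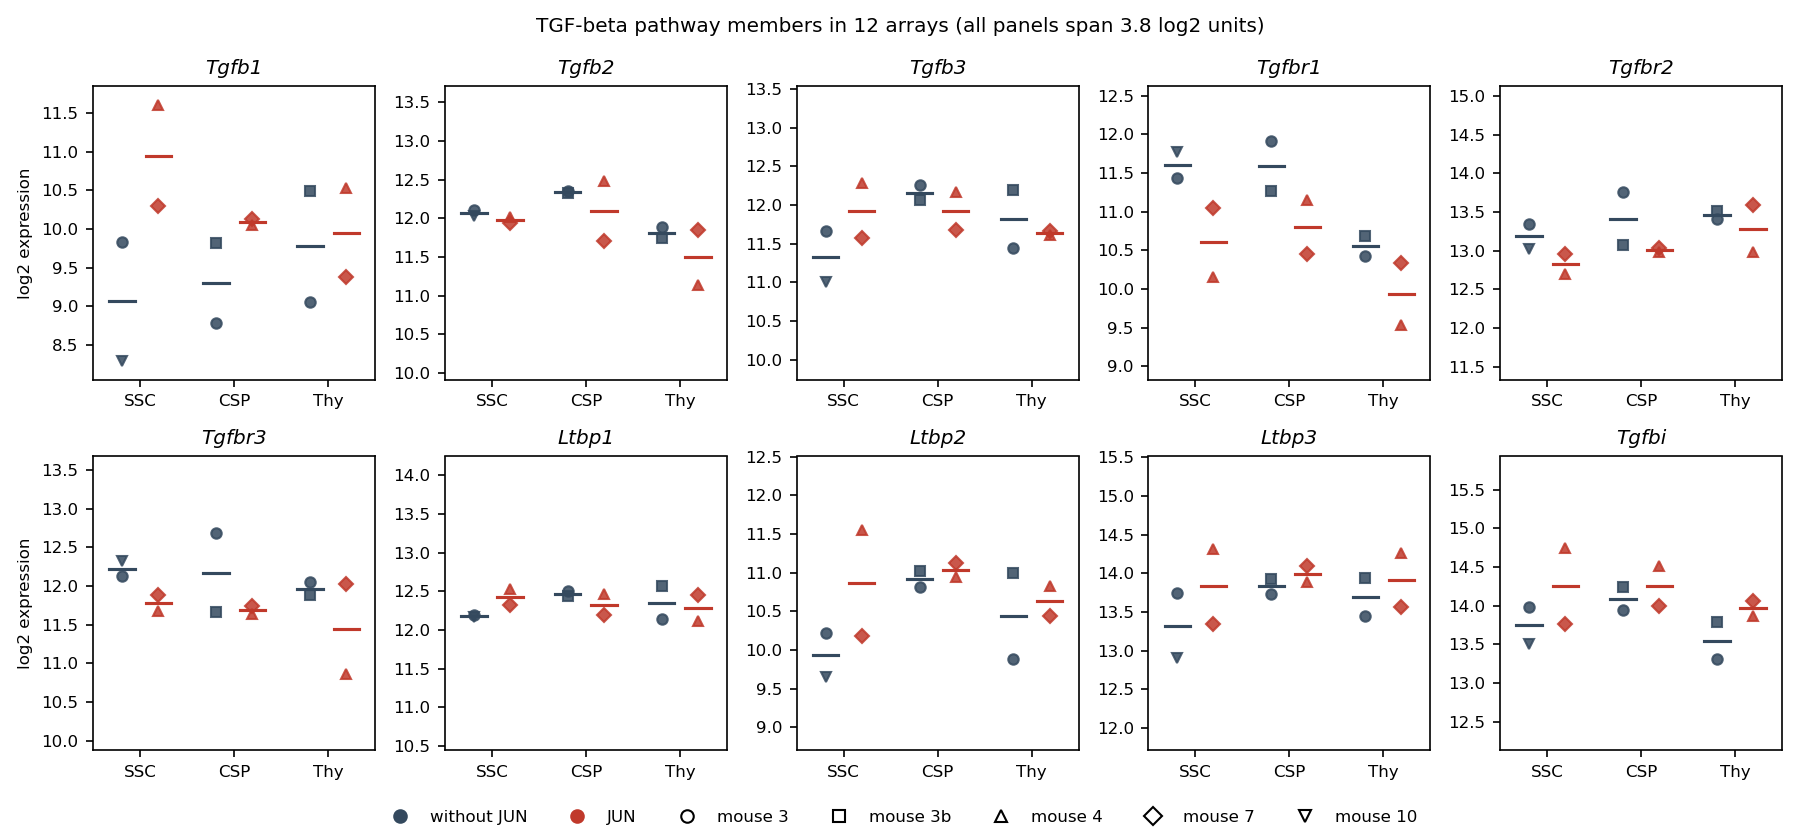
Log2 expression (vertical axis, every panel spanning the same 3.8 log2 units) of the tested probe set of each gene in 12 arrays, by sorted population (horizontal axis). Colour gives the arm, the symbol the mouse and the short line the mean of 2 arrays. The 3 Tgfbr1 pairs with JUN lie below the pairs without it, Tgfb1 spans 8.30 to 11.60, and Ltbp1 stays between 12.12 and 12.57.

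Tgfb1, the ligand most studied in bone remodelling, had the widest spread of the 10. It measured 9.83 and 8.30 in SSC without JUN, 11.60 and 10.30 in SSC with JUN, 8.79 and 9.82 in CSP without JUN, 10.05 and 10.13 in CSP with JUN, 9.06 and 10.49 in Thy without JUN, and 10.53 and 9.38 in Thy with JUN. The arms did not overlap in SSC and in CSP, where the JUN arrays were the higher, and they overlapped in Thy. The difference was 1.88 ± 0.69 (SE, 2 arrays against 2) in SSC (adjusted p = 0.690, unadjusted 0.0202), 0.78 ± 0.69 in CSP, 0.18 ± 0.69 in Thy and 0.95 ± 0.40 on average (adjusted p = 0.396, unadjusted 0.0372, limma). Single arrays moved these values: leaving out 1 array gave 1.11 to 2.65 in SSC, with 1.11 without replicate 3 without JUN, 1.24 without replicate 1 with JUN, 2.53 without replicate 2 with JUN and 2.65 without replicate 1 without JUN. In CSP it gave 0.27 without replicate 1 without JUN and 1.29 without replicate 2 without JUN. The interval of the average ran from 0.07 to 1.83 (95%, unadjusted), and the test that the 3 differences are unequal gave an adjusted p of 0.9997 (unadjusted 0.252). Between the populations, SSC minus Thy was 0.14 ± 0.51, a value whose sign depends on single arrays. In mice 3, 4 and 7, which gave both populations, SSC was above Thy by 0.77, 1.06 and 0.92, and with the mouse as a replicate block the difference was 0.83 ± 0.30 (adjusted p = 0.397). With the poly-A controls as a covariate it was 1.47. A second Tgfb1 probe set was dim, at 6.24 to 8.15, and was not tested.

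Tgfb2, the isoform that depends most on betaglycan, was nearly level within SSC. It measured 12.11 and 12.03 in SSC without JUN, 12.02 and 11.94 in SSC with JUN, 12.35 and 12.33 in CSP without JUN, 12.48 and 11.71 in CSP with JUN, 11.89 and 11.74 in Thy without JUN, and 11.14 and 11.85 in Thy with JUN. For this probe set the 4 SSC arrays all lay above the 4 Thy arrays. The other probe sets of Tgfb2 gave SSC minus Thy of 0.03, 0.54 and 0.05. SSC and Thy overlapped in the first (10.39 to 10.78 and 10.30 to 10.69) and in the last (8.97 to 9.61 and 8.97 to 9.51). In the second, SSC (10.38 to 10.99) lay above Thy (9.53 to 10.30). Counting tested probe sets only, Tgfb2 was the single member without overlap between SSC and Thy, where 7.59% of all genes did not overlap and 2.41% were higher in SSC. On the same count no member was without overlap between SSC and CSP (4.06%) or between CSP and Thy (6.11%). In each of the other Tgfb2 probe sets CSP lay above Thy without overlap, at 10.72 to 11.43 in the first, 10.74 to 11.25 in the second and 9.66 to 9.96 in the last. In the last, CSP also lay above SSC. For the tested probe set, CSP minus Thy was 0.56 ± 0.22 (SE, 4 arrays against 4, adjusted p = 0.327, limma), and SSC minus Thy was 0.37 ± 0.22 (adjusted p = 0.375). The 4 Tgfb2 probe sets, which read one transcript and are not independent, gave CSP minus Thy of 0.55, 0.64, 0.86 and 0.56. Within mice 3, 3b, 4 and 7 that difference was 0.46, 0.59, 1.34 and -0.14.

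Tgfb3, an isoform needed for closure of the palate, measured 11.67 and 11.004 in SSC without JUN, 12.28 and 11.58 in SSC with JUN, 12.26 and 12.06 in CSP without JUN, 12.17 and 11.68 in CSP with JUN, 11.45 and 12.19 in Thy without JUN, and 11.61 and 11.66 in Thy with JUN. Its groups overlapped in every comparison. SSC minus CSP was -0.41 ± 0.28, CSP minus Thy was 0.31 ± 0.28, and JUN minus without JUN in SSC was 0.59 ± 0.38 (adjusted p = 0.908, 0.668 and 0.691, limma). The array highest for Tgfb3 was SSC with JUN, replicate 1, the same array that was highest for the chondrocyte markers, and without it the JUN difference in SSC was 0.24. The part of the cartilage genes in this value was not tested.

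**Figure D2:**
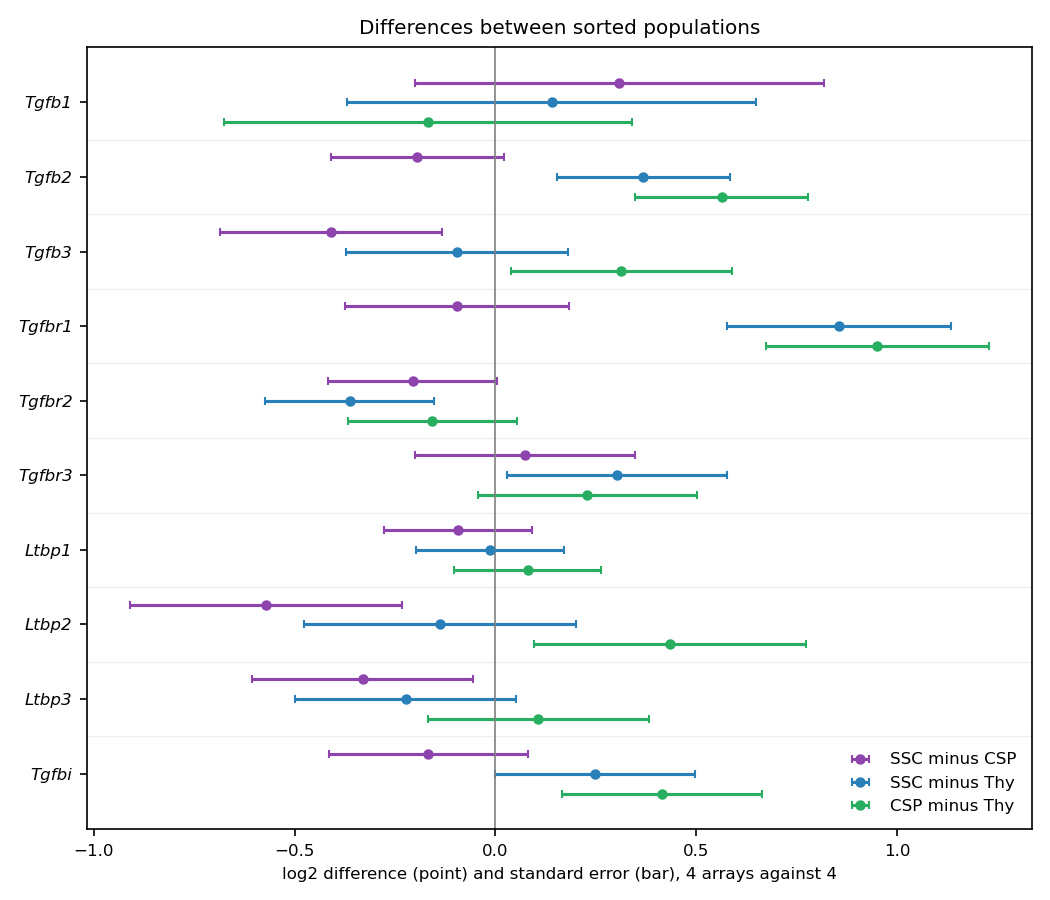
Differences of log2 expression between sorted populations (points, horizontal axis) with standard errors (bars) for the 10 genes, 4 arrays against 4. Tgfbr1 lies farthest to the right, at 0.85 for SSC minus Thy and 0.95 for CSP minus Thy, and no difference passed the test.

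Tgfbr1, the type I receptor kinase that carries the signal to the SMADs, had the largest difference between populations. With its tested probe set it was the only member whose arms were apart without overlap in all 3 populations. The sign of the JUN difference alone was the same in all 3 for every member but Tgfb3 and Ltbp1. It measured 11.43 and 11.77 in SSC without JUN, 10.16 and 11.05 in SSC with JUN, 11.92 and 11.27 in CSP without JUN, 11.15 and 10.45 in CSP with JUN, 10.43 and 10.69 in Thy without JUN, and 9.53 and 10.34 in Thy with JUN. For this probe set the JUN arrays lay below those without JUN in each population without overlap, while the populations overlapped. Of all genes, 0.887% were lower in all 3 populations in this way. That share counts the lower direction only, which was read from these same arrays, and the share for either direction is not given here. CSP minus Thy was 0.95 ± 0.28 (adjusted p = 0.176, unadjusted 0.00506) and SSC minus Thy was 0.85 ± 0.28 (adjusted p = 0.170, unadjusted 0.00961), both by limma with 4 arrays against 4. SSC minus CSP was -0.10 ± 0.28, so these 2 populations did not differ beyond their spread, with a 95% interval from -0.70 to 0.51.

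Within a mouse, the tested probe set of Tgfbr1 was lower in Thy each time. CSP was above Thy by 1.49 in mouse 3, 0.58 in mouse 3b, 1.63 in mouse 4 and 0.11 in mouse 7. SSC was above Thy by 1.005, 0.63 and 0.71 in mice 3, 4 and 7. The other probe sets of Tgfbr1, dimmer ones, gave CSP minus Thy of 1.13 and 1.40 and SSC minus Thy of 1.48 and 1.53. In mouse 7 the second of them was higher in Thy (8.23) than in CSP (8.06). The poly-A controls move with this comparison, since they were lower in SSC than in Thy, and with them as a covariate CSP minus Thy was 0.59 and SSC minus Thy was -0.12.

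**Figure D3:**
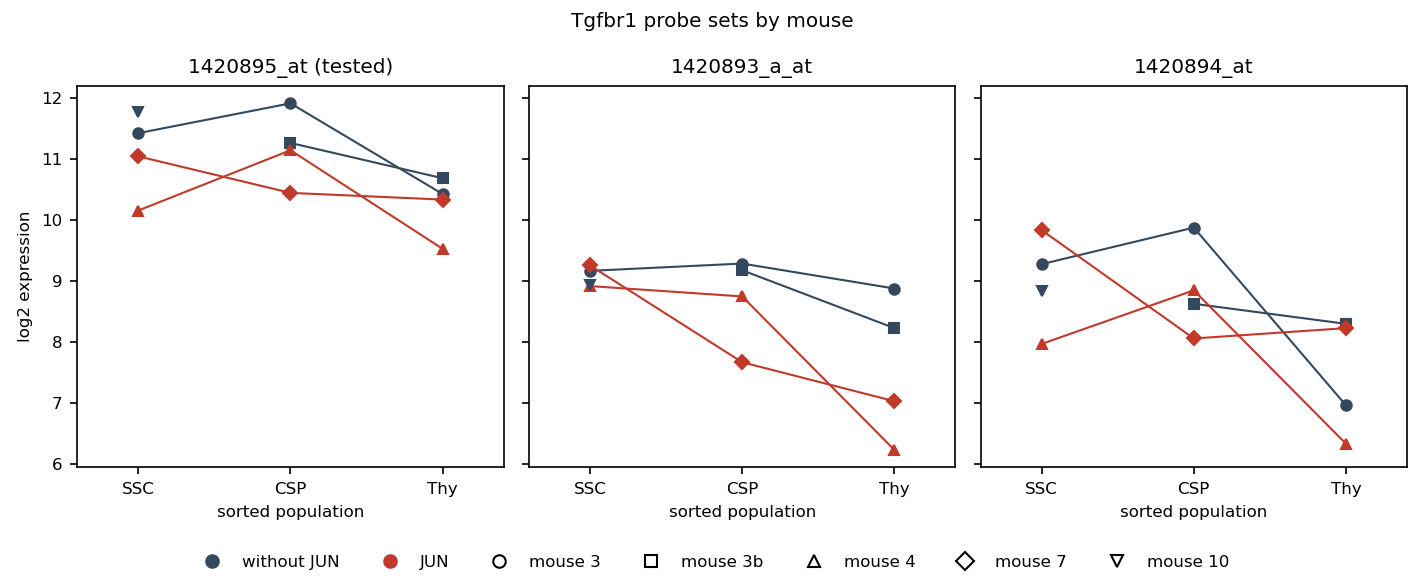
Log2 expression (vertical axis) of the 3 Tgfbr1 probe sets in SSC, CSP and Thy (horizontal axis), with lines that join the arrays of a mouse; colour gives the arm and the symbol the mouse. Each line from CSP to Thy goes down for the tested probe set, from 11.92 to 10.43 in mouse 3 and from 10.45 to 10.34 in mouse 7.

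The Tgfbr1 difference between the arms was -0.997 ± 0.43 in SSC (adjusted p = 0.690, unadjusted 0.0426), -0.79 ± 0.43 in CSP, -0.63 ± 0.43 in Thy and -0.81 ± 0.25 on average (adjusted p = 0.396, unadjusted 0.00852, limma), with an unadjusted 95% interval of the average from -1.36 to -0.25. The average stayed negative in 28 of 28 alternative settings, between -0.97 and -0.13. The smallest came with the poly-A controls as a covariate, where the value in SSC was 0.16, and these controls were higher with JUN in SSC and CSP. The other probe sets did not share the order in SSC, where they gave 0.03 and -0.16. The first of them had the JUN arrays lower without overlap in CSP (-1.03) and in Thy (-1.93). The second overlapped in every population. It gave -0.80 in CSP (9.88 and 8.63 without JUN, 8.85 and 8.06 with it) and -0.35 in Thy (6.96 and 8.30 without JUN, 6.33 and 8.23 with it). Without mouse 4 the average was -0.64.

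Tgfbr2, the type II receptor that binds ligand first, was bright and narrow in range. It measured 13.35 and 13.02 in SSC without JUN, 12.70 and 12.96 in SSC with JUN, 13.76 and 13.07 in CSP without JUN, 12.99 and 13.04 in CSP with JUN, 13.41 and 13.51 in Thy without JUN, and 12.98 and 13.59 in Thy with JUN. The JUN arrays were the lower without overlap in SSC and CSP, and overlapped in Thy. JUN minus without JUN was -0.31 ± 0.19 on average (adjusted p = 0.450), and SSC minus Thy was -0.36 ± 0.21 (adjusted p = 0.371, limma). A second tested probe set gave 0.14 for the average JUN difference and -0.54 for SSC minus Thy. The remaining one was near the floor of the arrays and not tested.

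Tgfbr3, the betaglycan co-receptor, measured 12.13 and 12.32 in SSC without JUN, 11.68 and 11.89 in SSC with JUN, 12.69 and 11.66 in CSP without JUN, 11.64 and 11.74 in CSP with JUN, 12.05 and 11.88 in Thy without JUN, and 10.86 and 12.03 in Thy with JUN. The arms were apart in SSC only, with the JUN arrays lower, and single arrays set the values in the other populations. JUN minus without JUN was -0.48 ± 0.25 on average (adjusted p = 0.413, limma), and SSC minus Thy was 0.30 ± 0.27 (adjusted p = 0.561). A second Tgfbr3 probe set gave 0.11 for the average JUN difference and -0.29 for SSC minus Thy, both opposite in sign to the tested one. With the poly-A controls as a covariate the averages of Tgfbr2 and Tgfbr3 were 0.12 and 0.01.

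Ltbp1, which anchors latent TGF-beta to fibrillin and fibronectin in the matrix, had the narrowest range of the tested probe sets of the 10 genes. It measured 12.19 and 12.17 in SSC without JUN, 12.53 and 12.33 in SSC with JUN, 12.50 and 12.44 in CSP without JUN, 12.47 and 12.19 in CSP with JUN, 12.14 and 12.57 in Thy without JUN, and 12.12 and 12.45 in Thy with JUN. Its range over the 12 arrays was 0.44, narrower than that of all but 0.735% of the genes tested, and the arms were apart only in SSC. There, JUN minus without JUN was 0.25 ± 0.29 (adjusted p = 0.789, limma). A second, dimmer Ltbp1 probe set ranged over 1.65 and gave -0.19 for JUN in SSC, 0.22 for JUN in CSP and 0.94 for JUN in Thy. Between populations, the 95% interval of SSC minus CSP ran from -0.49 to 0.31.

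Ltbp2, a relative that binds fibrillin and does not form the latent complex, measured 10.22 and 9.65 in SSC without JUN, 11.55 and 10.18 in SSC with JUN, 10.81 and 11.02 in CSP without JUN, 10.94 and 11.12 in CSP with JUN, 9.88 and 10.9997 in Thy without JUN, and 10.83 and 10.44 in Thy with JUN. The 4 CSP arrays were close together, with 1 SSC array above them, 2 Thy arrays within their range and the others below. SSC minus CSP was -0.57 ± 0.34 (adjusted p = 0.881), CSP minus Thy was 0.43 ± 0.34 (adjusted p = 0.624), and JUN minus without JUN was 0.93 ± 0.49 in SSC (adjusted p = 0.690) and 0.42 ± 0.28 on average (adjusted p = 0.476, limma). The SSC value rests on replicate 1 with JUN, without which it was 0.25.

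Ltbp3, a latency protein whose loss alters skeletal growth, measured 13.74 and 12.90 in SSC without JUN, 14.32 and 13.35 in SSC with JUN, 13.73 and 13.93 in CSP without JUN, 13.89 and 14.09 in CSP with JUN, 13.45 and 13.94 in Thy without JUN, and 14.26 and 13.56 in Thy with JUN. The arms overlapped in every population. JUN minus without JUN was 0.51 ± 0.43 in SSC (adjusted p = 0.717) and 0.30 ± 0.25 on average (adjusted p = 0.549), and SSC minus CSP was -0.33 ± 0.28 (adjusted p = 0.922, limma). A second bright Ltbp3 probe set gave 0.44 in SSC and 0.30 on average. Without SSC replicate 1 with JUN the value in SSC was 0.03.

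Tgfbi, a secreted matrix protein named for its induction by TGF-beta, measured 13.99 and 13.51 in SSC without JUN, 14.75 and 13.77 in SSC with JUN, 13.94 and 14.24 in CSP without JUN, 14.52 and 14.00 in CSP with JUN, 13.31 and 13.79 in Thy without JUN, and 13.87 and 14.06 in Thy with JUN. For the tested probe set the arms were apart only in Thy, with the JUN arrays higher. JUN minus without JUN was 0.36 ± 0.22 on average (adjusted p = 0.444) and 0.51 ± 0.39 in SSC (adjusted p = 0.710, limma), and the SSC value was 0.02 without replicate 1 with JUN. The 4 Tgfbi probe sets gave averages of 0.67, 0.27, 0.36 and 0.36. The first of these was apart in SSC as well, at 12.57 and 12.04 without JUN and 14.20 and 12.72 with it, a difference of 1.16. The second was also apart there, by a narrow margin (highest 11.748 without JUN, lowest 11.753 with it), with a difference of 0.30. CSP minus Thy was 0.41 ± 0.25 (adjusted p = 0.526), and SSC minus Thy was 0.25 ± 0.25.

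**Figure D4:**
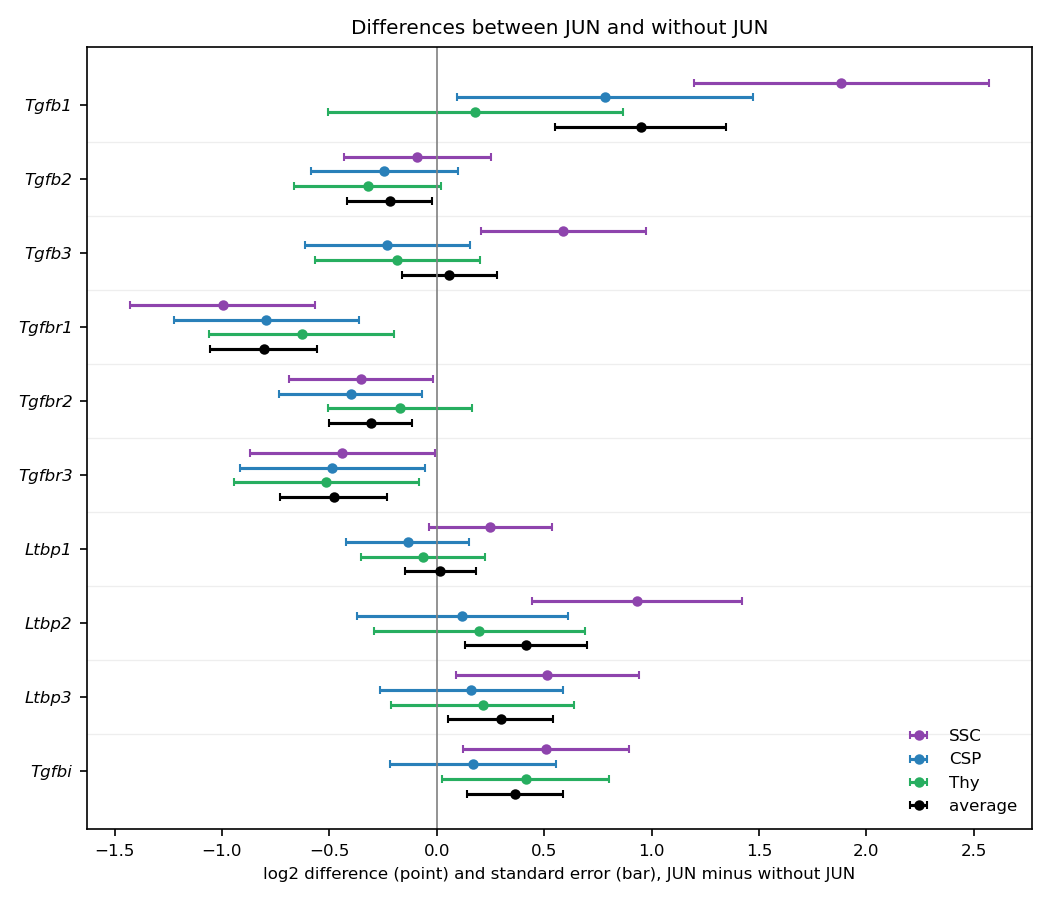
Differences of log2 expression, JUN minus without JUN (points, horizontal axis), with standard errors (bars) for the 10 genes, in each population (2 arrays against 2) and on average. Tgfb1 reaches 1.88 in SSC, the 4 Tgfbr1 points lie between -0.997 and -0.63, and no difference passed the test.

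Read across the roles, the arms did not overlap for 6 of 10 genes in SSC, 3 in CSP and 2 in Thy, against 38.4%, 31.2% and 28.6% of all genes. In SSC, Tgfb1 and Ltbp1 were higher with JUN (22.7% of all genes were) and Tgfb2, Tgfbr1, Tgfbr2 and Tgfbr3 lower (15.7%). These are counts for the tested probe sets. In SSC the other probe sets gave -0.19 for Ltbp1, 0.41 for Tgfbr2, 0.02 for Tgfbr3, and 0.03 and -0.16 for Tgfbr1. With the poly-A controls as a covariate the SSC differences were 0.29 for Tgfb2, 0.16 for Tgfbr1, 0.38 for Tgfbr2 and 0.40 for Tgfbr3. In CSP, Tgfb1 was higher (19.3%) and Tgfbr1 and Tgfbr2 lower (11.9%), and in Thy, Tgfbi was higher (17.9%) and Tgfbr1 lower (10.8%). With 2 arrays in each arm such separation is common, and the CSP and Thy counts are near the background. The median difference over the 10 genes was 0.38 in SSC, -0.18 in CSP and -0.12 in Thy, beside medians over all genes of 0.08, 0.07 and 0.04. SSC with JUN, replicate 1, was the highest of 12 arrays for 5 genes (Tgfb1, Tgfb3, Ltbp2, Ltbp3 and Tgfbi), and SSC without JUN, replicate 3, was the lowest for 4 of these, Tgfbi being the exception. CSP without JUN, replicate 1, was the highest for the 3 receptors. Thy with JUN, replicate 1, was the lowest for 4 genes (Tgfb2, Tgfbr1, Tgfbr3 and Ltbp1). The share of all genes that have their extremes in these arrays is not given here, so these counts describe the members only.

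Pearson's r over the 12 arrays was 0.90 for Ltbp2 with Ltbp3, 0.83 for Tgfb3 with Ltbp2, 0.79 for Ltbp2 with Tgfbi and 0.78 for Tgfb1 with Ltbp3. Ltbp1 had r of 0.82 with Tgfb3, 0.60 with Tgfbi and 0.59 with Ltbp2, but 0.47 with Tgfb2, 0.31 with Tgfb1 and 0.28 with Ltbp3. Among the receptors and Tgfb2, r was 0.78 for Tgfb2 with Tgfbr1 and 0.77 for Tgfbr1 with Tgfbr3, but 0.29 for Tgfbr1 with Tgfbr2 and 0.12 for Tgfb2 with Tgfbr2. For the tested probe sets, Tgfb1 ran against the receptors, with r of -0.61 with Tgfbr1, -0.55 with Tgfbr2 and -0.66 with Tgfbr3. Ltbp3 did so as well, with r of -0.57, -0.25 and -0.62. Only tested probe sets were correlated. The second probe sets of Tgfbr2 and Tgfbr3, whose average JUN differences were 0.14 and 0.11, have no part in these values. After the mean of each of the 6 groups was taken out, the values with the receptors were -0.63, -0.37 and -0.69 for Tgfb1 and -0.74, -0.30 and -0.58 for Ltbp3. Tgfb1 with Ltbp3 was then 0.94. With 2 arrays in a group the deviations mirror each other, so these values rest on 6 independent differences, not on 12 arrays. These are descriptions over arrays that share mice, and no p is given.

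**Figure D5:**
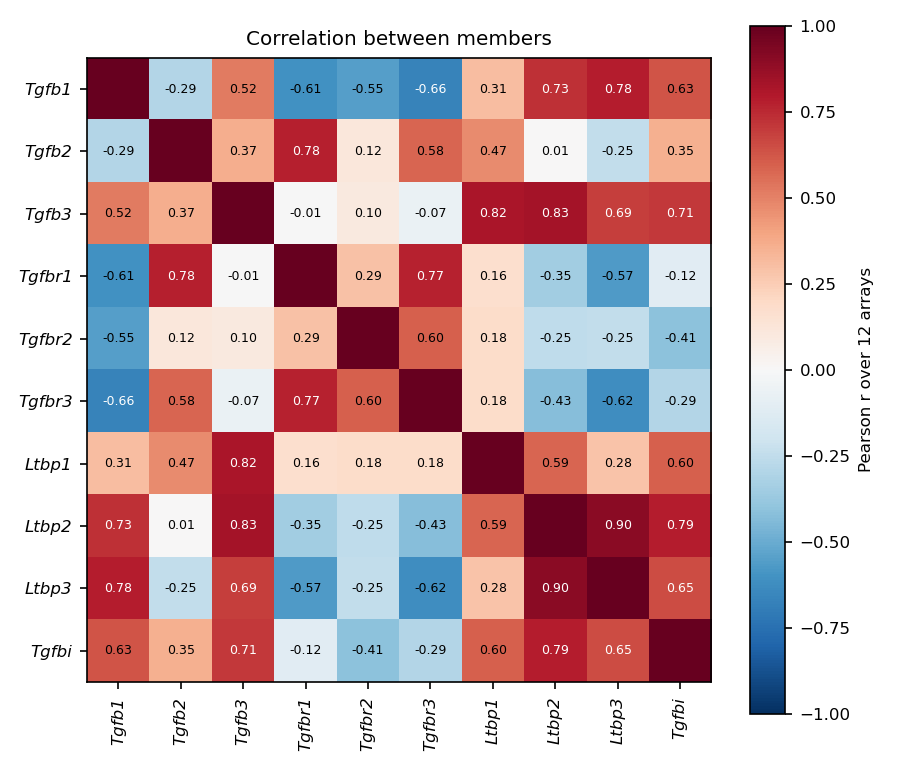
Pearson correlation of log2 expression over 12 arrays for each pair of the 10 genes, tested probe sets only (colour and printed value). The red cells join Tgfb1, Tgfb3, Ltbp2, Ltbp3 and Tgfbi, as at 0.90 for Ltbp2 with Ltbp3. Ltbp1 is at 0.82 with Tgfb3, but at 0.31 with Tgfb1 and 0.28 with Ltbp3. Among the blue cells are those of Tgfb1 with the receptors, as at -0.66 for Tgfbr3. Ltbp3 is also blue, at -0.62 with Tgfbr3 and -0.57 with Tgfbr1, and Ltbp2 is at -0.43 with Tgfbr3.

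The genes whose pattern over the 12 arrays was most like that of Tgfb1 were Trrap (r = 0.92), Fam20b (0.92), Kcnh2 (0.91), Fasn (0.91) and Gpc1 (0.91). For Tgfbr1 they were Peg3 (0.97), Fndc3b (0.97), Lpp (0.97), Rev3l (0.97) and Atg3 (0.96), and for Ltbp2 they were Ptpn14 (0.94), Scx (0.93), Dab2 (0.93), Emilin1 (0.93) and Dennd3 (0.92). The 3 genes were taken as Tgfb1 and the members of lowest p in the population comparisons.

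Of the wider pathway, 3 genes passed a test, out of 6 lists with 16, 6, 7, 12, 13 and 33 genes tested. Eng passed between SSC and CSP and between SSC and Thy, where 0.431% and 0.391% of all genes passed. Itgb3 and Acta2 passed between CSP and Thy, where 0.991% did. Eng, endoglin, a co-receptor that binds TGF-beta with the type II receptor, was lower in SSC, at 7.95 to 8.24, than in CSP, at 9.30 to 10.40, and in Thy, at 9.07 to 10.24. The SSC arrays did not overlap the others. The difference was -1.57 ± 0.24 against CSP (adjusted p = 0.0132) and -1.54 ± 0.24 against Thy (adjusted p = 0.0287, limma). Eng encodes CD105, a marker on which published schemes sort these populations, and the labels do not give the gates used here. With the mouse as a replicate block the adjusted p was 0.122 and 0.121, and it lay between 0.00302 and 0.142 against CSP and between 0.00696 and 0.475 against Thy over 29 alternatives, of which 19 and 16 kept the call. Against CSP the call was lost without SSC with JUN replicate 2, SSC without JUN replicate 3 or CSP without JUN replicate 2 (adjusted p = 0.0519 to 0.0591), and without mouse 3, 3b, 7 or 10 (highest 0.142). Against Thy it was lost without any of 6 single arrays (both SSC without JUN, SSC with JUN replicate 2, CSP without JUN replicate 2, Thy without JUN replicate 2 and Thy with JUN replicate 1; highest 0.112), and without the same 4 mice (highest 0.182).

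Itgb3, the beta subunit of an integrin that can bind latent TGF-beta, measured 11.14, 10.84, 10.38 and 11.55 in CSP and 12.10, 12.33, 12.52 and 12.12 in Thy, without overlap. CSP minus Thy was -1.29 ± 0.26 (adjusted p = 0.0373, limma). Acta2, smooth muscle actin, a contractile target of TGF-beta, measured 11.96, 11.55, 11.73 and 11.98 in CSP and 12.72, 12.98, 13.47 and 12.70 in Thy, again without overlap. CSP minus Thy was -1.16 ± 0.22 (adjusted p = 0.0274), and SSC minus CSP was 1.10 ± 0.22 (adjusted p = 0.0613). Acta2 also belongs to the 10 pericyte and smooth muscle markers, whose mean was 11.17 to 11.81 in Thy arrays and 10.06 to 10.77 in the others, and the part of such cells in these values was not tested. Both calls were lost with the mouse as a replicate block (adjusted p = 0.0768 for Itgb3 and 0.0512 for Acta2), without mouse 3 (0.229 and 0.180), without mouse 3b (0.235 and 0.222) and without mouse 4 (0.158 and 0.160), and that of Acta2 also without mouse 7 (0.0608). They held in 12 of 29 alternatives for Itgb3 and in 15 of 29 for Acta2. Leaving out a single array ended the Itgb3 call for 9 of 12 arrays (highest adjusted p 0.117, without CSP without JUN replicate 2) and the Acta2 call for 6 of 12 (highest 0.114, without CSP with JUN replicate 1), while the difference stayed between -1.50 and -1.06 for Itgb3 and between -1.31 and -1.02 for Acta2.

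By list, the latency and activation genes gave 1 pass, Itgb3, among 16 tested of 20, the co-receptors and other receptors 1, Eng, among 7 of 8, and the target genes 1, Acta2, among 33 of 39. The 6 matrix binders, the 12 SMADs and mediators tested of 13 and the 13 inhibitors gave 0 passes in every comparison, by limma, with at most 1, 2 and 2 genes in a direction at an unadjusted p under 0.05, where 1.15% to 17.7% of all genes lay in either direction. Among genes that did not pass, Itgb8, the beta subunit of another activating integrin, gave SSC minus CSP of 2.77 ± 0.68 (adjusted p = 0.181). Itgb8 was dim, above the array median in 7 of 12 arrays. It measured 8.74, 10.63, 7.67 and 9.68 in SSC and 7.78, 4.68, 6.94 and 6.24 in CSP. Ltbp4 gave SSC minus Thy of -1.11 (adjusted p = 0.155), Tgfb1i1, a TGF-beta-inducible adaptor, gave -0.92 (adjusted p = 0.124), and Cnn1, calponin, gave 1.15 (adjusted p = 0.0619). Skil, a repressor of SMAD activity, gave CSP minus Thy of 1.08 (adjusted p = 0.226).

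For JUN, 0 genes of the 6 lists passed in any population, by limma. On average over the populations, Tab1, an activator of the kinase TAK1, gave 0.64, Trim33, a regulator of SMAD4, gave -0.81, and Smurf2, a ubiquitin ligase for the receptors and SMADs, gave -0.61, each with an adjusted p of 0.396. In SSC, 28 of 33 target genes had higher means with JUN, where 56.3% of all genes did, and their median difference was 0.35. In CSP and in Thy the count was 20 of 33, where 57% and 53.6% of all genes were higher, with medians of 0.05 and 0.03. In SSC, of these, Junb alone had an unadjusted p under 0.05, with 1.20 ± 0.49 (adjusted p = 0.690). The 28 genes are read on the same 4 arrays, among them the JUN array that was highest for cartilage genes and the pair without JUN that was lowest for the poly-A controls, whose parts were not tested.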

How the data were processed

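Total RNA of sorted bone cells was measured on 12 arrays. The authors deposited log2 expression values, 1 per probe set, computed with RMA according to the submitters' processing notes. The version of RMA is not given in the sources used here, and the range of the values (3.20 to 15.99) is that of a log2 scale. RMA gives all arrays a common distribution, which hides a change in total RNA and compresses dim probe sets. The number of arrays limits the precision.

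Of 45101 probe sets, 64 controls were left out; 34945 had 1 gene symbol, 932 several and 9160 none in the platform annotation. A probe set was tested when it lay above its array's median in at least 2 arrays, and the brightest by mean over all arrays stood for its gene, which left 12516 genes. Two-sided tests were made with limma 3.58.1 under R 4.3.3 (lmFit, eBayes), p-values were adjusted over these genes by Benjamini and Hochberg, and the threshold was 0.05. The population model held population and arm (8 residual degrees of freedom). The JUN model held 6 group means (6 residual degrees of freedom), so each pair of arrays was assumed to vary like the others. The script was tested on simulated data. Errors are standard errors of the fit.

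Titles give the mouse of each array, and arrays of one number were taken as one animal; for mice 3 and 7 this joins dated to undated titles. Deviations from population means correlated at -0.084 to 0.50 (median 0.17, 10 pairs) within a mouse and at -0.34 to 0.42 (median 0.063, 14 pairs) between mice of an arm. Differences between the arms remain in these deviations. The mouse was a fixed block for populations and a random one for JUN (consensus correlation -0.060) as an alternative. The other alternatives changed the filter, the probe set rule, centring, the variance model and array weights, added covariates, or left out an array or a mouse.

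The genes, the lists and the tests were chosen with earlier results of these data known. All 10 members are named in every comparison; from each list up to 4 genes of lowest p between populations and up to 2 for JUN may be named, and for Tgfb1 and the members of lowest p the 5 genes of highest r.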

Additional observations from a re-analysis of the deposited data

Results flagged for a closer look

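In 3 of 30 sets of 4 arrays of a population, 1 array lay far from the others by Dixon's criterion, which chance meets in about 5% of sets. Tgfbr2 was 13.76 in CSP without JUN, replicate 1, and 12.99 to 13.07 in the other CSP arrays. Tgfbr3 was 12.69 in the same array, against 11.64 to 11.74 in the others. Tgfbr3 was 10.86 in Thy with JUN, replicate 1, against 11.88 to 12.05.

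Probe sets left out of the fit as too dim lay above their array's median in single arrays. For Ltbp3, 2 such probe sets read 8.20 and 9.29 in SSC with JUN, replicate 1, against 4.47 to 6.73 and 6.45 to 7.62 in the other arrays. For Tgfb1, 1 read 8.15 in Thy with JUN, replicate 1, against 6.24 to 7.01.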

How the results depend on the processing

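The count of members that passed stayed at 0 in all comparisons and alternatives except 1: with array weights, Tgfbr1 passed between SSC and Thy (1 member, adjusted p = 0.0490, limma). The average JUN difference kept its direction in 28 of 28 alternatives for Tgfb1 (0.50 to 1.36) and for Tgfbr1, and CSP minus Thy of Tgfbr1 did so in 29 of 29 (0.59 to 1.23). Tgfbr1 SSC minus CSP changed sign with the mean of its probe sets (0.13), array weights (0.024) and the 3' minus 5' control difference as a covariate (0.25). With the poly-A controls as a covariate, 20 of 70 member differences changed sign; the cause was not tested. For JUN in SSC these were Tgfb2 (0.29), Tgfbr1 (0.16), Tgfbr2 (0.38), Tgfbr3 (0.40) and Ltbp3 (-0.044), and in CSP Tgfbr2 (0.072), Tgfbr3 (0.051), Ltbp2 (-0.25) and Ltbp3 (-0.20). On average they were Tgfb2 (0.0015), Tgfbr2 (0.12), Tgfbr3 (0.0075) and Ltbp3 (-0.028). Between populations they were SSC minus Thy of Tgfb3 (0.12), Tgfbr1 (-0.12), Tgfbr3 (-0.24), Ltbp2 (0.57) and Ltbp3 (0.29), CSP minus Thy of Tgfb1 (0.32) and SSC minus CSP of Tgfbr3 (-0.27). Leaving out an array or a mouse gave -0.33 to 0.20 for Tgfbr1 SSC minus CSP, -0.54 to 0.89 for Tgfb1 with JUN in Thy, and -0.28 to 0.60 for Tgfb1 SSC minus Thy. With the mouse as a replicate block, Tgfbr1 CSP minus Thy was 0.95 (adjusted p = 0.207) and its average JUN difference -0.81 (adjusted p = 0.326); the block ended the calls of Eng, Itgb3 and Acta2 and changed no call of a member. Counts over all genes moved more: 2 to 156 between SSC and CSP, 0 to 572 between SSC and Thy, 8 to 321 between CSP and Thy, and for JUN 0 to 282 in SSC, 0 to 2 in CSP, 0 to 175 in Thy and 0 to 495 on average.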
